A study of Mus musculus with 30 samples.

Results

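The subunit genes of respiratory complexes II to V were described in mouse liver: the succinate dehydrogenase genes Sdha, Sdhb, Sdhc and Sdhd (complex II), all genes whose symbols begin with Uqcr (complex III), those that begin with Cox4, Cox5, Cox6, Cox7 or Cox8 (complex IV) and those that begin with Atp5 (complex V), together with Cycs, which encodes the mobile electron carrier cytochrome c. Genes were chosen by symbol alone, from probe sets annotated to 1 gene. Of the 18194 genes represented on the array in this way, 47 fitted the rule, and 42 of them had a probe set that passed the filter on weak signal, among 12156 such genes in all. These 42 were 4 genes of complex II, 8 of complex III, 12 of complex IV, 17 of complex V and Cycs.

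Male mice aged 6 to 9 months were dosed by gavage for 7 days with 0, 3 or 10 mg/kg of the potassium salt of perfluorooctane sulfonate (PFOS), a persistent fluorinated surfactant, and RNA of the left liver lobe was hybridized. The 0 mg/kg animals, labelled untreated, received the Tween 20 vehicle that all animals shared. Wild-type (WT) mice were of strain 129S1/SvlmJ, and PPARα-null (Null) mice, labelled 129S4/SvJae-Pparatm1Gonz/J, lack in all tissues a functional gene for the nuclear receptor PPARα, a regulator of fatty acid oxidation. Since the labels give a different 129 strain for each genotype, strain and genotype cannot be told apart. Each of the 6 groups held 5 mice with 1 Affymetrix array per mouse, or 30 arrays in all, and the values are log2 signals on which a difference of 1 is a doubling.

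The respiratory chain oxidizes NADH and succinate in the inner mitochondrial membrane. Complex II is the enzyme of the citric acid cycle that passes electrons from succinate to ubiquinone, complex III passes them from ubiquinol to cytochrome c, and complex IV passes them from cytochrome c to oxygen. Complexes III and IV pump protons, and complex V, the ATP synthase, uses the proton gradient to make ATP. All the genes described here are nuclear, while the mitochondrial genome encodes further subunits of complexes III, IV and V. The liver, rich in mitochondria, relies on this chain for gluconeogenesis, urea synthesis and fatty acid oxidation.

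Replicates 4 and 5 of the WT 0 mg/kg group stood apart from the other 3 arrays of that label. The signal for Ppara, the gene altered in Null mice, was 8.53 and 8.63 on these arrays and 10.55 to 10.66 on replicates 1 to 3, while the 15 Null arrays lay between 8.43 and 9.66, and that for Cyp2b10, a xenobiotic-inducible cytochrome P450, was 12.55 and 12.99 against 7.87 to 8.30. These values go against the WT 0 mg/kg label of both arrays, and whether labels were mixed up could not be settled, so a mean over all 5 arrays may not be that of untreated WT mice. The main counts and median changes that rest on the WT 0 mg/kg group are therefore given with and without the 2 arrays. Group means, unadjusted counts, results on the brightest probe sets and other reruns include both arrays unless stated. Array medians lay between 5.60 and 5.70, no pair of arrays was identical, and all 9 measured hepatocyte markers passed the filter. The log2 of their summed signal had a mean of 16.88 in Null 0 mg/kg. With 5 arrays a group, the group size sets the precision, and in whole liver RNA fewer cells of a type and less RNA per cell cannot be told apart.

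Many nuclear genes of the respiratory chain are known targets of the transcription factors NRF1, GABP (an ETS factor) and YY1. The 250 bases before the start of 4 of the genes that the results turn on are shown, with the strand of each gene read 5′ to 3′ (RefSeq, build GRCm38.p6). They are Uqcrh, a complex III gene, at chr4:116075071-116075320, Atp5j at chr16:84834977-84835226 and Atp5g2 at chr15:102671048-102671297, complex V genes, and Cox6b2, a complex IV gene whose pattern was unlike that of the others, at chr7:4753095-4753344, all on the minus strand. Capitals mark the letters CCGGAAG (ETS) in Uqcrh, CCGGAAG and AAGATGGC (YY1) in Atp5j, the NRF1 consensus in Atp5g2 and GGGCGG (SP1) in Cox6b2, on either strand.
Uqcrh: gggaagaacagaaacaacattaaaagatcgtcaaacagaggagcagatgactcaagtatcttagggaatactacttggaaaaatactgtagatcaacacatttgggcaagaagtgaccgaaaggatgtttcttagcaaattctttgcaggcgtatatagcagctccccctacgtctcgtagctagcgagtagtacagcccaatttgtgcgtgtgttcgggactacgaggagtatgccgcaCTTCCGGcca
Atp5j: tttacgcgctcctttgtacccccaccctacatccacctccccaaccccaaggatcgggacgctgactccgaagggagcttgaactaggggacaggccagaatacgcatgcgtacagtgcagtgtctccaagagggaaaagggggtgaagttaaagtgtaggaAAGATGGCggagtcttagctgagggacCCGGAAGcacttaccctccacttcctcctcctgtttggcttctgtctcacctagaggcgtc
Atp5g2: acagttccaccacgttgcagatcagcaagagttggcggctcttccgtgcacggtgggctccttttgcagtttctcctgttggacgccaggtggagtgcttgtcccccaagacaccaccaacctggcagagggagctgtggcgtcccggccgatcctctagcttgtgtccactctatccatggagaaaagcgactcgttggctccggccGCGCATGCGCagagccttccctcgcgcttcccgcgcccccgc
Cox6b2: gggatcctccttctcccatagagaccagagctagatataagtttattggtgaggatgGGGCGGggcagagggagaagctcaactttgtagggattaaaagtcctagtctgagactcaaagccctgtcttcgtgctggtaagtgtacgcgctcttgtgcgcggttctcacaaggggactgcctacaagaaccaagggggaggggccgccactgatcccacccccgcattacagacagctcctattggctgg
In the window from 250 bases before to 50 bases after the start, 12.9% of the 17491 protein-coding genes with a listed promoter held CCGGAAG, 3.57% AAGATGGC, 7.17% the NRF1 consensus and 49.2% GGGCGG, on either strand. The PPAR consensus was held by 0.0572%. These letters were searched apart from each other and may overlap. A promoter was listed for 32 of the 42 measured genes, under 80%, so a comparison of motif shares between these genes and the rest was void. In the 250 bases before the start, none of these letters was found for Cycs, Uqcr10 or Cox5b. Another listed promoter of Atp5j, at chr16:84835626-84835875, held GGGCGG and none of the others. A match of letters is a description of the sequence and no evidence of binding.

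In WT mice only 1 of the subunit genes, Cox6b2, passed the test at either dose. At 3 mg/kg, none of the 42 genes was called by limma (adjusted p under 0.05), where 0.247% of all genes were called, and 2 had an unadjusted p under 0.05. The methods' t-test also called 0. The median log2 change was 0.03, beside 0.00 to 0.01 over all genes tested in each comparison. At 10 mg/kg, where 7.53% of all genes were called higher and 5.54% lower, 1 of the 42 was called higher, Cox6b2, and none lower. The median log2 change was 0.06, with 34 of the 42 above 0, and the 41 genes other than Cox6b2 lay between -0.23 (Atp5c1) and 0.23 (Cycs). Between 10 and 3 mg/kg, limma called 0 of the 42 (3 with an unadjusted p under 0.05, and 0 by the methods' t-test), where 6.68% of all genes were called. Without the 2 doubted control arrays the median change was -0.01 and 0.02 at the low and high dose, and 25 of the 42 lay above 0 at the high dose. Calls by limma then were 0 at 3 mg/kg. At 10 mg/kg they were 2, Cox6b2 higher and Atp5c1 lower (-0.29, adjusted p = 0.0212), where 14.1% of all genes were higher and 15.1% lower in that fit. Atp5c1 was also lower between 10 and 3 mg/kg (-0.25, adjusted p = 0.0396), where 6.74% of all genes were lower. Both Atp5c1 calls rest on a weak probe set at a mean of 7.08. With all arrays, its bright probe set, at a mean of 12.78, gave -0.01 and -0.04 in these comparisons, neither called. With single arrays left out, the count at 10 mg/kg was 2 without WT 0 mg/kg replicate 4 or 5 or WT 10 mg/kg replicate 3 and 3 without WT 3 mg/kg replicate 2, and the count between 10 and 3 mg/kg was 1 without WT 0 mg/kg replicate 1 or WT 10 mg/kg replicate 3.

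In Null mice the same genes were mostly lower after PFOS. At 3 mg/kg, 23 of the 42 were called lower and 0 higher by limma, where 3.13% of all genes were called lower and 2.02% higher. At 10 mg/kg, 20 were lower and 0 higher, beside 4.96% and 4.14% of all genes. The median log2 change over the 42 genes was -0.30 and -0.29 at the low and high dose, and 39 and 38 of them, respectively, lay below 0, while 5995 of all 12156 genes lay below 0 at 3 mg/kg. Changes of the called genes ran from -0.51 to -0.23 at the lower dose and from -0.83 to -0.24 at the higher dose, so most were modest. For 28 genes every array of the 3 mg/kg group lay below every Null 0 mg/kg array, and for 20 genes this was so at 10 mg/kg, beside 5.36% and 5.03% of all genes. Across the 79 probe sets of these genes that passed the filter, 36 were lower at 3 mg/kg and 38 at 10 mg/kg, and none was higher. With the brightest probe set of each gene in place of the one with the smallest p, 22 and 18 of the 42 genes were lower. The shares of all genes above used the smallest p, and no matching share is given for the counts by probe set or by brightest probe set.

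No difference between the 2 doses passed the test in Null mice. No gene of the 42, and 0% of all genes, was called by limma between 10 and 3 mg/kg, 2 of the 42 had an unadjusted p under 0.05, and the methods' t-test also called 0. The median difference was 0.03. Both comparisons with 0 mg/kg share the same 5 control arrays. The count at 3 mg/kg fell to 11, 12, 10 and 15 without replicates 2, 3, 4 and 5 of Null 0 mg/kg, and to 14, 14, 14 and 10 without replicates 1, 2, 4 and 5 of Null 3 mg/kg, whereas the count at 10 mg/kg stayed between 14 and 26 when any 1 array was left out. The median stayed between -0.33 and -0.26 at 3 mg/kg and between -0.32 and -0.22 at 10 mg/kg under every alternative tried.

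**Figure D1:**
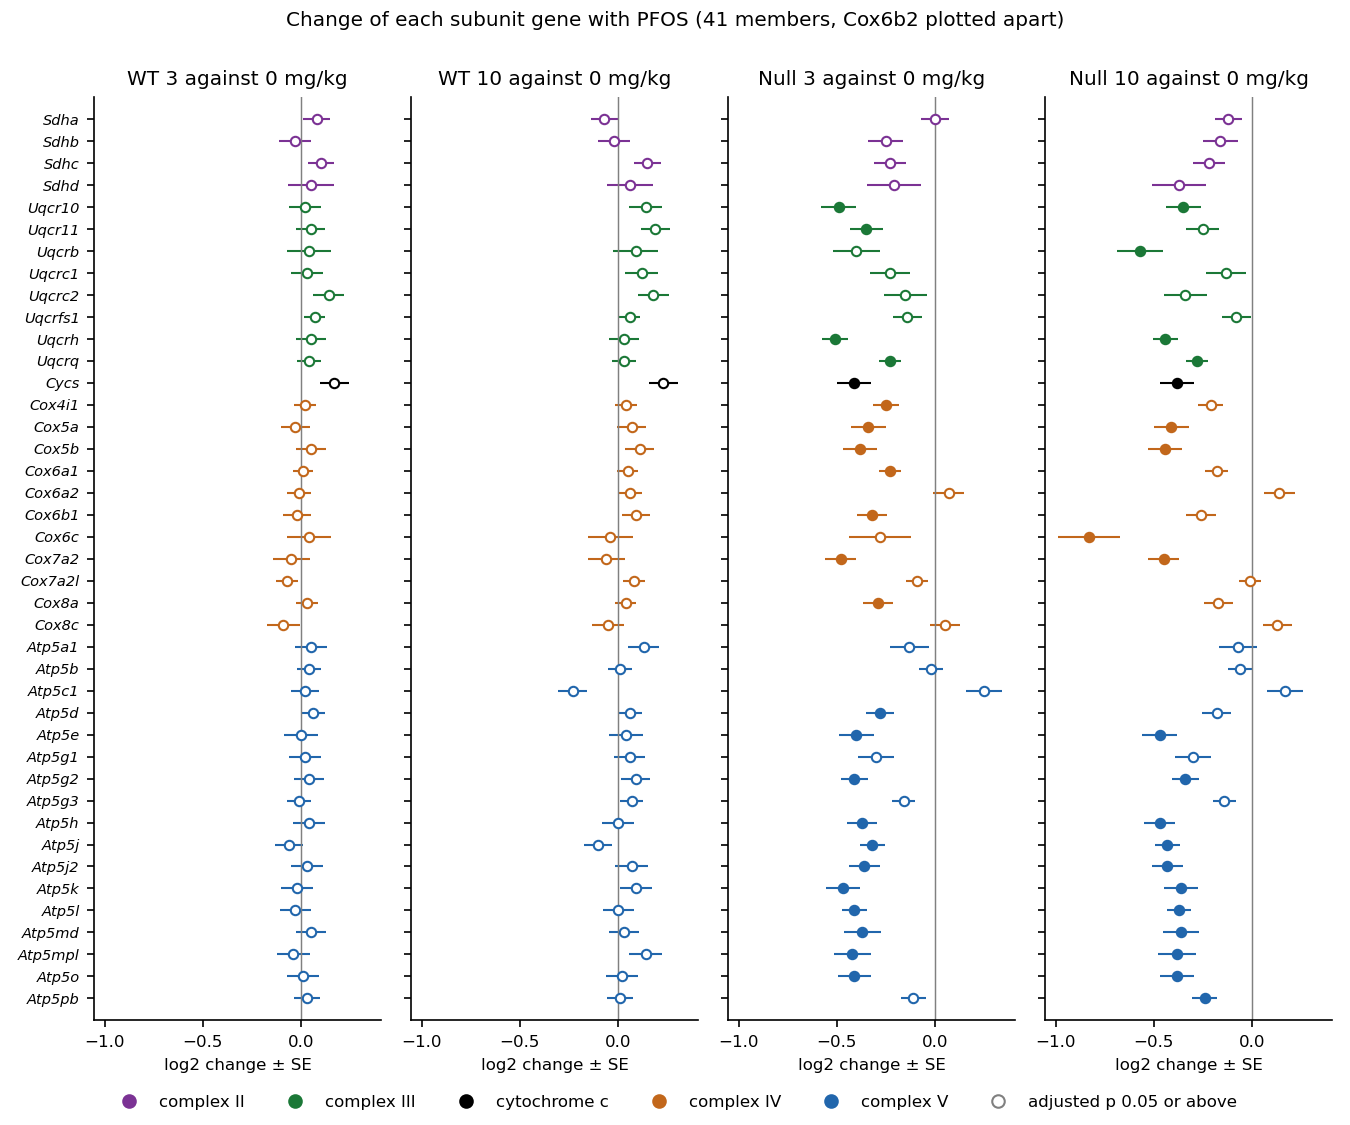
Log2 change (x axis, ± SE from limma) of 41 subunit genes (rows) at 3 and 10 mg/kg PFOS against 0 mg/kg in WT and Null mice, 5 arrays a group, coloured by complex. Filled points had an adjusted p under 0.05. WT points lie near 0 with none filled, and 23 Null points at 3 mg/kg and 20 at 10 mg/kg are filled, all below 0. Cox6b2 is left out for scale.

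Complex II had 0 genes called by limma in Null mice at either dose, with 2 at an unadjusted p under 0.05 at each. The median log2 change of its 4 genes was -0.22 and -0.19 at the low and high dose. Sdha, the flavoprotein that oxidizes succinate, had signals of 11.80, 11.80, 11.66, 11.74 and 11.70 in Null 0 mg/kg and 11.82, 11.80, 11.76, 11.56 and 11.75 in Null 3 mg/kg. These overlapped, and its change was 0.00 ± 0.0694 (SE, limma adjusted p = 0.999) at 3 mg/kg and -0.12 (adjusted p = 0.346) at 10 mg/kg.

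Sdhb, the iron-sulfur subunit, had signals of 13.01, 12.94, 12.87, 12.95 and 12.90 in Null 0 mg/kg, and in Null 3 mg/kg 12.74, 12.73, 12.77, 12.41 and 12.74. Every treated array lay below every control array, yet the change of -0.25 did not pass the test (adjusted p = 0.132). Sdhc, a membrane anchor of the complex, changed by -0.23 at 3 mg/kg (adjusted p = 0.137) and -0.22 at 10 mg/kg (adjusted p = 0.108). Sdhd, the other anchor, changed by -0.21 and -0.37 (adjusted p = 0.475 and 0.113) on the probe set with the smallest p, which was weak at a mean of 6.72, and by -0.11 and -0.10 on its brightest probe set, at a mean of 12.43. That the counts of the complexes differ was not tested.

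In complex III, 4 of 8 genes were lower in Null mice at each dose, and the median log2 change was -0.29 and -0.31 at the low and high dose. Uqcrh, the hinge protein that holds cytochrome c1 to cytochrome c, gave 11.81, 12.00, 11.87, 11.96 and 11.86 in Null 0 mg/kg. It gave 11.39, 11.40, 11.46, 11.35 and 11.33 in Null 3 mg/kg and 11.47, 11.53, 11.44, 11.31 and 11.53 in Null 10 mg/kg. All 10 treated arrays lay below all 5 controls, and Uqcrh fell, with a log2 change of -0.51 ± 0.0649 (SE, limma adjusted p = 0.00106) for the low dose and -0.44 (adjusted p = 0.00125), or -26.5%, for the high dose. Its brightest probe set gave a smaller change of -0.33 for the low dose, also called. In WT mice its group means were 11.70 ± 0.0781, 11.75 ± 0.181 and 11.73 ± 0.0448 (SD, n = 5) at 0, 3 and 10 mg/kg.

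Uqcr10, a small membrane subunit, had signals of 12.07, 12.29, 12.31, 12.36 and 12.23 in Null 0 mg/kg, and 11.83, 11.82, 11.90, 11.55 and 11.75 in Null 3 mg/kg. The groups did not overlap, with a change of -0.49 (adjusted p = 0.00762) at 3 mg/kg and -0.35 (adjusted p = 0.0258) at 10 mg/kg. Uqcr11, another small subunit, was at 12.43, 12.59, 12.45, 12.59 and 12.37 in Null 0 mg/kg and at 12.08, 12.13, 12.19, 12.09 and 12.16 in Null 3 mg/kg, again without overlap. It was lower at 3 mg/kg (-0.35, adjusted p = 0.0271) and did not pass the test at 10 mg/kg (-0.25, adjusted p = 0.0794), where 1 array reached 12.42.

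Uqcrq, a small subunit bound to cytochrome b, was lower at both doses (-0.23 and -0.28, adjusted p = 0.0337 and 0.00958) on its brightest probe set. Its other kept probe sets gave 0.04 and -0.18 at 3 mg/kg and 0.20 and 0.05 at 10 mg/kg, none called, so the probe sets disagreed. Uqcrb, the ubiquinone-binding protein, was called at 10 mg/kg (-0.57, adjusted p = 0.00947, and -0.29, adjusted p = 0.0385, on its brightest probe set) and missed the threshold at 3 mg/kg (-0.40, adjusted p = 0.0672). The large core proteins Uqcrc1 and Uqcrc2 and the Rieske iron-sulfur protein Uqcrfs1 were not called at either dose, with changes of -0.34 to -0.08. Cyc1, which encodes cytochrome c1 and falls outside the symbol rule, changed by -0.25 (adjusted p = 0.242) and -0.20 (adjusted p = 0.293).

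Cycs, the soluble carrier between complexes III and IV, gave 11.96, 12.34, 12.30, 12.21 and 12.10 in Null 0 mg/kg. The arrays of Null 3 mg/kg gave 11.80, 11.78, 11.86, 11.62 and 11.77, and those of Null 10 mg/kg 11.70, 12.01, 11.66, 11.79 and 11.86. The 3 mg/kg arrays lay wholly below the controls, and 1 array of 10 mg/kg exceeded the lowest control. Cycs fell, and its change was -0.41 ± 0.0868 (SE, limma adjusted p = 0.0154), or -24.9%, for the low dose and -0.38 (adjusted p = 0.0167), or -23.0%, for the high dose. In WT mice the difference was upward and not called, 0.17 (adjusted p = 0.897) and 0.23 (adjusted p = 0.0589), and 0.09 and 0.16 without the 2 doubted arrays.

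Complex IV had 7 of 12 measured genes lower in Null mice at 3 mg/kg and 4 at 10 mg/kg, with medians of -0.29 and -0.20. Cox7a2, the liver form of subunit VIIa, gave 11.93, 12.15, 12.13, 12.13 and 12.11 in Null 0 mg/kg, then 11.67, 11.74, 11.67, 11.37 and 11.61 in Null 3 mg/kg and 11.64, 11.76, 11.63, 11.49 and 11.68 in Null 10 mg/kg. No treated array reached a control array, and the changes were -0.48 (adjusted p = 0.00457) and -0.45 (adjusted p = 0.00387). Cox5b, a zinc-binding subunit on the matrix side, gave 12.12, 12.38, 12.14, 12.28 and 12.15 in Null 0 mg/kg and 11.94, 11.88, 11.65, 11.65 and 11.78 in Null 10 mg/kg. These groups did not overlap either, and Cox5b changed by -0.38 (adjusted p = 0.0243) at 3 mg/kg and -0.44 (adjusted p = 0.00798) at 10 mg/kg. Of its 5 kept probe sets, 4 were called lower at each dose, the brightest by -0.22 at 10 mg/kg, and 1 lay at -0.02 and 0.08.

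Cox6c, a small membrane subunit, had a mean signal of 10.21 ± 0.331 (SD, n = 5) in Null 0 mg/kg, 9.92 ± 0.309 in Null 3 mg/kg and 9.37 ± 0.141 in Null 10 mg/kg. The 10 mg/kg arrays, at 9.27, 9.57, 9.34, 9.45 and 9.23, lay below all controls, of which the lowest was 9.95 and replicate 2 the highest at 10.78. The change was -0.28 at 3 mg/kg (adjusted p = 0.377) and -0.83 at 10 mg/kg (adjusted p = 0.00599), whereas its brightest probe set gave -0.28 (adjusted p = 0.0323) and -0.33 (adjusted p = 0.0107). Cox5a, another matrix-side subunit, was called at both doses, at -0.34 and -0.41, though not at 3 mg/kg on its brightest probe set (adjusted p = 0.0523).

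Subunits of complex IV with tissue isoforms were set side by side. The common liver forms Cox4i1, Cox6a1, Cox6b1 and Cox8a were each lower at 3 mg/kg (-0.25, -0.23, -0.32 and -0.29) and missed the threshold at 10 mg/kg (-0.21, -0.18, -0.26 and -0.17, adjusted p = 0.0535 to 0.186). On its brightest probe set, Cox6b1 was not called at 3 mg/kg either (-0.28, adjusted p = 0.0885). Cox6a2, the heart and muscle form, changed by 0.07 and 0.14, and Cox8c, a testis form, by 0.05 and 0.13, neither called. Cox4i2, Cox7a1, Cox7b2 and Cox8b, forms best known from lung, muscle and testis, did not pass the filter on weak signal, with means of 4.87, 4.94, 3.10 and 4.85 over all arrays. The 2 probe sets of Cox7c, a small subunit with no such isoform pair here, did not pass either, the brighter at a mean of 5.40, and no probe set of 1 gene was listed for Cox7b. Cox7a2l, a factor for supercomplex assembly, changed by -0.09 and -0.01.

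Cox6b2, the testis form of subunit VIb, was the 1 gene called in WT mice. Its signals were 8.08, 8.66, 8.43, 5.44 and 5.21 in WT 0 mg/kg, the last 2 being those of the doubted arrays, then 9.46, 8.71, 9.54, 9.28 and 9.19 in WT 3 mg/kg and 9.21, 9.82, 9.89, 9.19 and 9.64 in WT 10 mg/kg. The Null arrays ran from 4.36 to 6.66 at all doses, and so did the 2 doubted arrays. All treated WT arrays lay above all WT controls. The change at 10 mg/kg was 2.38 ± 0.561 SE (adjusted p = 0.0166), and 1.15 ± 0.205 (adjusted p = 0.00142) without the doubted arrays, so the change was smaller and still called. At 3 mg/kg it was 2.07 (adjusted p = 0.375), and 0.84 (adjusted p = 0.0885) without them. In Null mice it changed by -0.59 and 0.08, neither called.

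**Figure D2:**
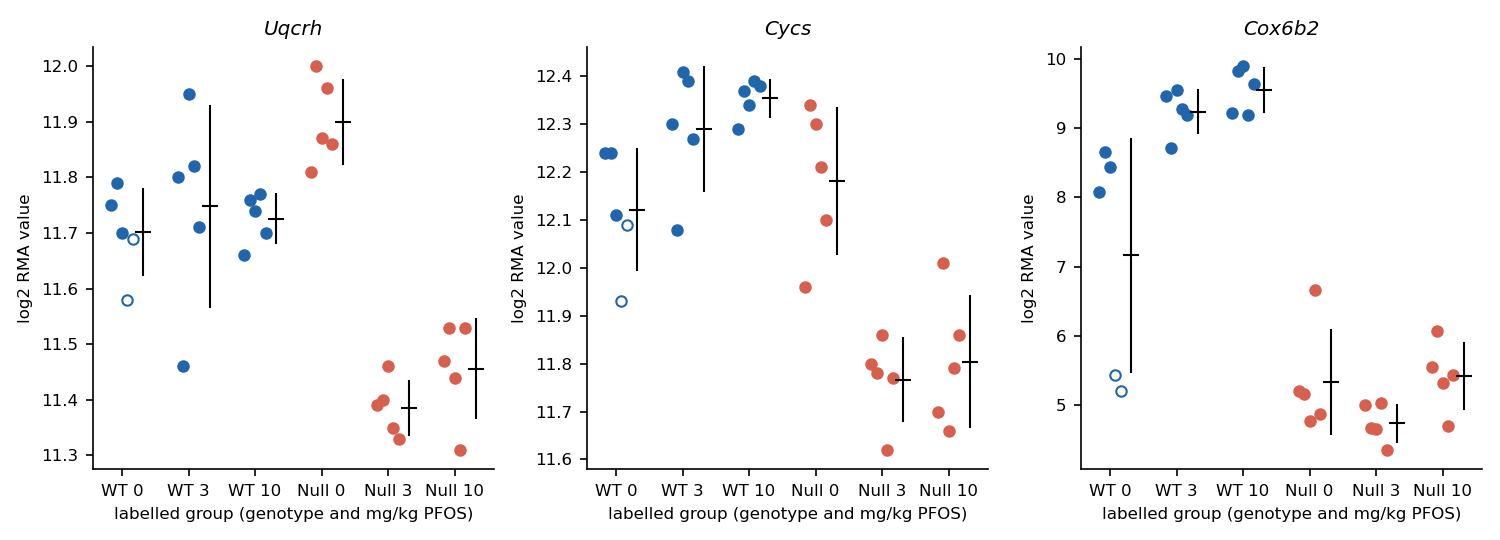
Log2 signal (y axis) of Uqcrh, Cycs and Cox6b2 on each array by group, with the group mean and SD (n = 5) to the right of the points. Open points are the 2 doubted arrays of WT 0 mg/kg. Uqcrh and Cycs are lowest in the treated Null groups, at means of 11.39 and 11.77 at 3 mg/kg, and the open points of Cox6b2 (5.44 and 5.21) lie with the Null arrays.

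Complex V had 11 of its 17 genes lower in Null mice at each dose, with a median log2 change of -0.36 at both. The calls included subunits of the membrane part and the stalk. Atp5j, coupling factor 6 of the stalk, gave 12.63, 12.80, 12.73, 12.77 and 12.75 in Null 0 mg/kg, then 12.43, 12.51, 12.46, 12.30 and 12.36 in Null 3 mg/kg and 12.22, 12.35, 12.33, 12.24 and 12.37 in Null 10 mg/kg. The log2 changes were -0.32 (adjusted p = 0.0114), or -20.1%, and -0.43 (adjusted p = 0.00143), or -25.8%, with no overlap at either dose.

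Atp5l, subunit g of the membrane part, gave 12.16, 12.23, 12.23, 12.23 and 12.17 in Null 0 mg/kg and 11.80, 11.83, 11.85, 11.67 and 11.85 in Null 3 mg/kg. Atp5g2, one of 3 genes for the proton-carrying c subunit, gave 12.07, 12.16, 12.23, 12.23 and 12.18, and 11.72, 11.75, 11.86, 11.69 and 11.79. In both genes the groups did not overlap, and the change was -0.41 at 3 mg/kg, with -0.37 for Atp5l and -0.34 for Atp5g2 at 10 mg/kg. Adjusted p was 0.00321 and 0.00457 at 3 mg/kg and 0.00274 and 0.00892 at 10 mg/kg, respectively. The other c subunit genes, Atp5g1 (-0.30 at each dose) and Atp5g3 (-0.16 and -0.14), encode the same mature protein and were not called.

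Atp5h, subunit d of the stalk, gave 12.11, 12.46, 12.33, 12.33 and 12.31 in Null 0 mg/kg and 11.92, 11.93, 11.79, 11.87 and 11.70 in Null 10 mg/kg, without overlap, for changes of -0.37 and -0.47 (adjusted p = 0.0143 and 0.0027) at the 2 doses. Its brighter probe set gave -0.23 at 10 mg/kg, which did not pass the test (adjusted p = 0.0726). Atp5e, Atp5j2, Atp5k, Atp5md, Atp5mpl and Atp5o, small or stalk subunits, were lower at both doses, between -0.47 and -0.36. Atp5d, of the central stalk, was called at 3 mg/kg alone (-0.28) and Atp5pb, of the peripheral stalk, at 10 mg/kg alone (-0.24), a call that its other probe set did not give (-0.13, adjusted p = 0.348). The catalytic β subunit Atp5b changed by -0.02 and -0.06 (adjusted p = 0.894 and 0.635), and the α subunit Atp5a1 by -0.13 and -0.07. The Atp5a1 values came from a weak probe set at a mean of 6.67, and its brightest, at 13.32, gave -0.01 and -0.04.

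Atp5c1, the γ subunit that rotates in the head, was the 1 gene of complex V with a difference above 0 in Null mice, 0.25 and 0.17 (adjusted p = 0.146 and 0.279), on a weak probe set at a mean of 7.08. Its bright probe set, at a mean of 12.78, gave -0.20 and -0.13, so its direction depends on the probe set. Atpif1, the inhibitor that binds the ATP synthase when the gradient collapses, lies outside the symbol rule. Its signal went from 8.23 ± 0.134 (SD, n = 5) in Null 0 mg/kg to 7.99 ± 0.182 at 3 mg/kg (-0.24, adjusted p = 0.182) and 7.78 ± 0.128 at 10 mg/kg (-0.45, adjusted p = 0.0107).

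**Figure D3:**
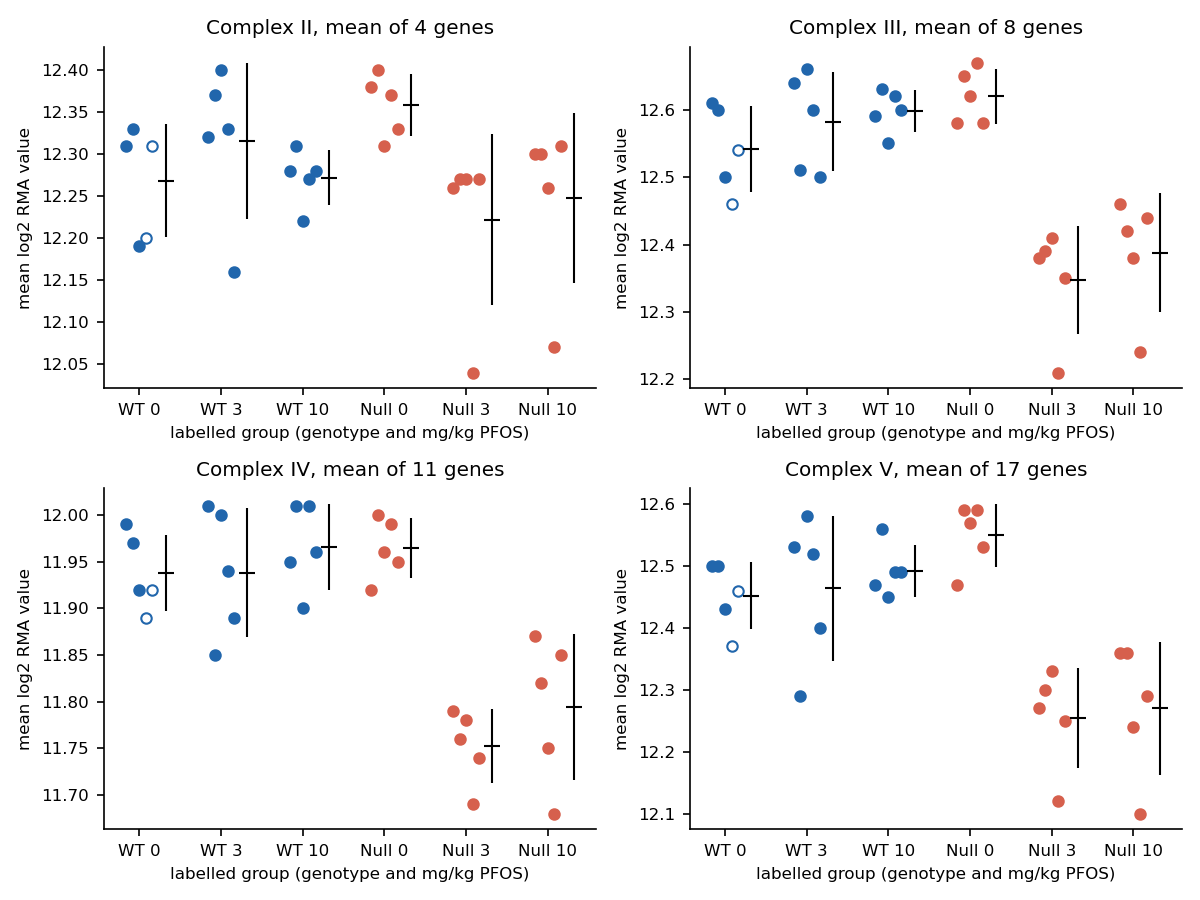
Mean log2 signal per array (y axis) over the brightest probe set of each gene of complexes II, III, IV and V, by group, with the group mean and SD (n = 5). Open points are the 2 doubted arrays of WT 0 mg/kg. For complex V the means are 12.55 in Null 0 mg/kg, 12.25 in Null 3 mg/kg and 12.27 in Null 10 mg/kg, against 12.45, 12.47 and 12.49 in WT. Cox6b2 is left out of complex IV, and each panel has its own scale.

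Averaged over the brightest probe sets of 41 genes, the signal of each array showed the same order. Null 0 mg/kg arrays lay between 12.32 and 12.42, Null 3 mg/kg arrays between 12.00 and 12.18, and Null 10 mg/kg arrays between 12.01 and 12.23. WT arrays lay between 12.22 and 12.42 over all doses, which overlaps the highest Null 10 mg/kg array. Within Null mice the treated groups did not reach the controls, and the 2 treated groups overlapped each other.

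Whether the response differed between genotypes was tested directly as the Null change minus the WT change. At 10 mg/kg, 20 of the 42 genes had a lower response in Null mice and 1 a higher one, where 3.03% and 0.749% of all genes did, and the median difference was -0.37. The 20 comprised 6 genes of complex III, 4 of complex IV, 8 of complex V, Sdhc and Cycs. Cycs had a difference of -0.61 ± 0.112 SE (adjusted p = 0.00325), Uqcrh -0.47 (adjusted p = 0.00824), Cox5b -0.54 (adjusted p = 0.00824) and Atp5g2 -0.43 (adjusted p = 0.0147). On the brightest probe set of each gene, with all arrays, 13 were called, and Uqcrh (-0.23, adjusted p = 0.0884), Cox5b (-0.28, adjusted p = 0.0692) and Cox6c (-0.25, adjusted p = 0.15) were not. The shares of all genes given here are for the probe set with the smallest p. Sdhc was the one complex II gene called, at -0.37 (adjusted p = 0.0421). At 3 mg/kg, 4 genes were called lower and 0 higher, where 0.995% of all genes were lower and 0.239% higher, with a median of -0.32. These were Uqcrh (-0.56), Cycs (-0.58), Uqcr10 (-0.51) and Atp5g2 (-0.45).

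These tests include the WT 0 mg/kg group. Without its 2 doubted arrays the median difference was -0.30 at each dose, and with the probe set of each gene chosen again limma called 0 at 3 mg/kg, where 0.189% of all genes were lower and 0.0247% higher, and 9 lower and 1 higher at 10 mg/kg, where 3.73% and 1.60% were. With the probe sets kept they were 1 and 11, so 3 of 4 and 10 of 21 calls were lost. Those kept were Uqcrh at 3 mg/kg (-0.52, adjusted p = 0.0368), where Cycs (-0.51, adjusted p = 0.0694), Atp5g2 (-0.42, adjusted p = 0.0847) and Uqcr10 (-0.44, adjusted p = 0.118) no longer passed, and at 10 mg/kg 10 lower genes, among them Cycs (-0.53, adjusted p = 0.0134), Cox5b (-0.51, adjusted p = 0.0189), Sdhc (-0.42, adjusted p = 0.027) and Uqcrh (-0.43, adjusted p = 0.0227). The 1 gene with a higher response was Atp5c1, at 0.47 (adjusted p = 0.0348), and with all arrays at 0.41 (adjusted p = 0.0488) on its weak probe set and -0.13 on its bright one. With a single array omitted, the count for the low dose was 2 without Null 0 mg/kg replicate 3 or 4, Null 3 mg/kg replicate 1, WT 0 mg/kg replicate 4 or WT 3 mg/kg replicate 1 or 3. It was 10 without Null 0 mg/kg replicate 1, 11 without Null 10 mg/kg replicate 4, 12 without Null 10 mg/kg replicate 1 or WT 0 mg/kg replicate 2, 14 without Null 3 mg/kg replicate 3 and 24 without WT 3 mg/kg replicate 2. The count at 10 mg/kg fell to 6 without WT 10 mg/kg replicate 2, to 9 and 12 without Null 0 mg/kg replicates 2 and 4, to 11 and 10 without Null 10 mg/kg replicates 3 and 4, and to 11 without WT 0 mg/kg replicate 4.

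**Figure D4:**
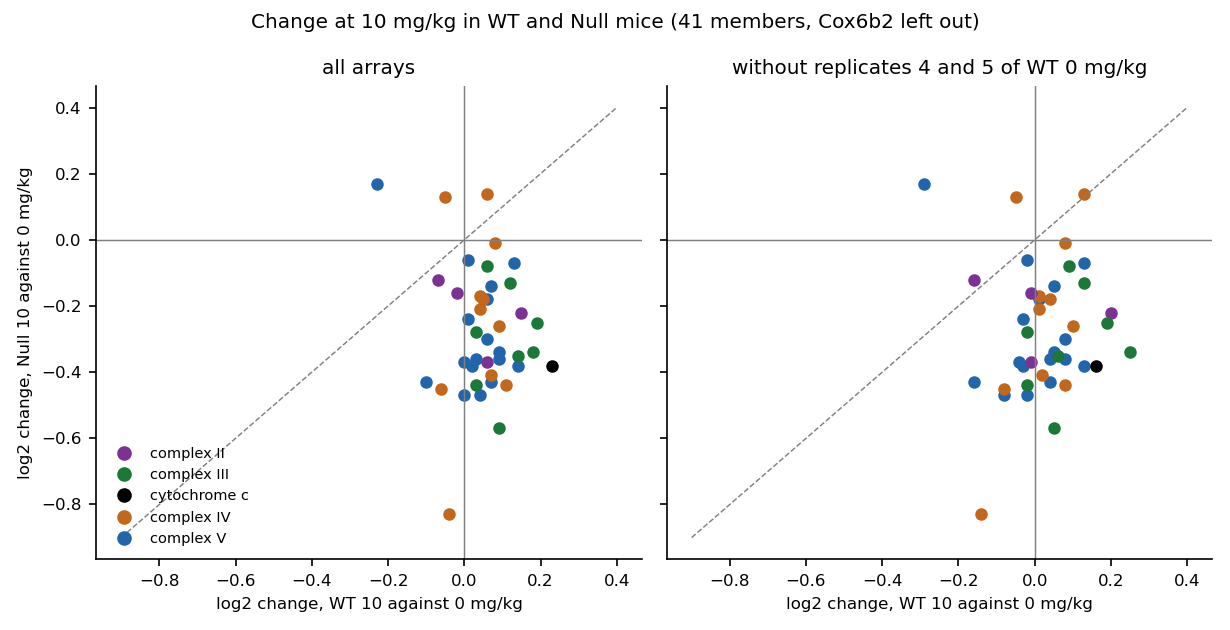
Log2 change at 10 mg/kg in Null mice (y axis) against that in WT mice (x axis) for 41 genes, coloured by complex, with all arrays (left) and without the 2 doubted control arrays (right). The dashed line marks equal change. Most points lie below it, with a median difference between genotypes of -0.37 over all 42 genes with all arrays and -0.30 without the 2.

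In animals without PFOS, few of these genes passed the test between genotypes, though most lay slightly higher in Null mice. In Null 0 mg/kg against WT 0 mg/kg, 1 gene was called higher, Atp5h at 0.31, and 0 lower, where 0.897% and 0.683% of all genes were called, and the median difference was 0.09. Of the 42, 37 lay above 0, beside 6267 of all 12156 genes. An unadjusted p under 0.05 was found for 17 of the 42 and for 2068 of all genes. With the doubted arrays left out, 33 of the 42 lay above 0, beside 6160 of all genes, with a median of 0.06. Without the doubted arrays Atp5h lay at 0.23 (adjusted p = 0.183), and Cox6b2 was the 1 call, at -3.05 ± 0.310 SE (adjusted p = 4.91e-07). With all arrays Cox6b2 differed by -1.83 (adjusted p = 0.0516). The count of 1 became 0 without Null 0 mg/kg replicate 2, 3 or 5, Null 3 mg/kg replicate 1, 2 or 5, WT 0 mg/kg replicate 1 or 3, WT 3 mg/kg replicate 1 or WT 10 mg/kg replicate 4 or 5, and 2 without Null 3 mg/kg replicate 4 or Null 10 mg/kg replicate 1 or 4.

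Related gene groups were read in the same way. Of all genes, 3.13% were called lower in Null mice at 3 mg/kg and 4.96% at 10 mg/kg. Of 33 measured complex I subunits, which feed NADH electrons into the chain, 24 were lower in Null mice at 3 mg/kg and 21 at 10 mg/kg, with medians of -0.39 and -0.35. Of 41 measured assembly factors and accessory proteins of complexes II to V, 10 were lower at 3 mg/kg, and 9 lower and 1 higher at 10 mg/kg. Pet100 and Cox16, which help to build complex IV, changed by -0.67 and -0.40 at 3 mg/kg, and Fmc1, which helps to build complex V, by -0.72. Cox20, another complex IV factor, changed by -0.52 at 10 mg/kg. Higd1a, a small mitochondrial membrane protein, changed by -0.51 and -0.71 at the 2 doses. Cox15, an enzyme of heme A synthesis, was the 1 higher gene, at 0.30 at 10 mg/kg. That is 2.44% of the 41, beside 4.14% of all genes called higher.

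Counts in other mitochondrial groups in Null mice are set beside the shares of all genes, 3.13% lower and 2.02% higher at 3 mg/kg and 4.96% lower and 4.14% higher at 10 mg/kg. Of 13 citric acid cycle enzymes, 0 were called at 3 mg/kg by limma (4 with an unadjusted p under 0.05) and 1 at 10 mg/kg, Idh2, at 0.34. Of 26 genes of mitochondrial membranes, import and chaperones, 1 was lower at 3 mg/kg (Tomm22, -0.27) and 1 higher at 10 mg/kg (Immt, 0.30). Counts this small do not set these groups apart from all genes. In WT mice at 10 mg/kg, where 7.53% of all genes were higher, 7 of these 26 were higher, among them Phb2 (0.35) and Chchd3 (0.30). Of the 13 cycle enzymes 4 were higher, among them Suclg1 (0.41) and Dlst (0.40), and Idh3a was lower (-0.39). Without the 2 doubted arrays, where 14.1% of all genes were higher, 14 of the 26 and 5 of the 13 were higher, with changes of 0.42 (Phb2), 0.29 (Chchd3), 0.44 (Suclg1), 0.37 (Dlst) and -0.55 (Idh3a). Whether these groups differ from the subunits was not tested.

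Of 24 measured regulators of respiratory chain genes, 0 were called by limma in Null mice at 3 mg/kg (4 with an unadjusted p under 0.05), and 1 was lower at 10 mg/kg, Sp1, at -0.36, or 4.17% beside 4.96% of all genes. Ppargc1a, the PGC-1α coactivator of mitochondrial genes, changed by -0.08 and -0.43 in Null mice (adjusted p = 0.841 and 0.0917). In WT mice it was lower at 10 mg/kg (-1.01, adjusted p = 0.00911, and -1.16, adjusted p = 0.0047, without the doubted arrays). Nrf1 and Gabpa, which encode factors named with the promoters, had Null changes of -0.17 and 0.08 for the low dose and -0.14 and -0.21 for the high dose, and those of Tfam, which packs mitochondrial DNA and starts its transcription, were -0.09 and -0.17, none called.

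**Figure D5:**
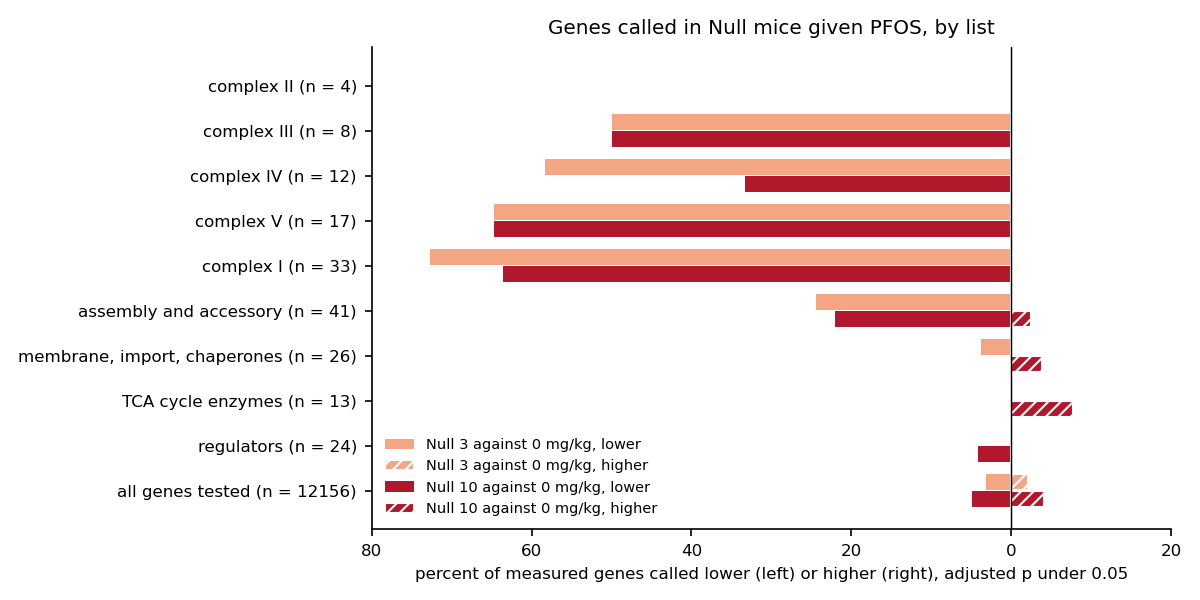
Percent of the measured genes of each group (rows, n in brackets) called lower (left of 0) or higher (right of 0) in Null mice at 3 and 10 mg/kg against 0 mg/kg. Complex V has 64.7% lower at each dose, complex I 72.7% and 63.6%, and all genes tested 3.13% and 4.96%, while complex II has none.

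Markers of liver cell types were measured beside these changes in Null mice. Of 9 hepatocyte markers, limma called 0 at either dose (1 and 3 with an unadjusted p under 0.05). Signals were summed on the linear scale, so the brightest markers weigh most. The log2 of the summed hepatocyte signal was 16.87 to 16.89 in Null 0 mg/kg, 16.87 to 16.90 in Null 3 mg/kg and 16.73 to 16.88 in Null 10 mg/kg. Of 13 Kupffer cell and macrophage markers, 0 were called at 3 mg/kg (3 with an unadjusted p under 0.05). At 10 mg/kg 3 were lower, C1qa, C1qc and Cd5l, or 23.1% beside 4.96% of all genes. All 13 lay below 0 at 10 mg/kg, with a median log2 change of -0.36. The log2 of their summed signal was 13.09 to 13.46, 13.00 to 13.20 and 12.62 to 13.31 in the 3 groups. All measured markers of both lists passed the filter. At 10 mg/kg, Pecam1 and Lyve1 among 8 endothelial markers and S100a8 among 6 measured blood cell markers were higher, beside 4.14% of all genes. Yet 5 of the 8 endothelial markers lay below 0 (median -0.10), and the log2 of their summed signal had means of 11.82 in Null 0 mg/kg and 11.76 in Null 10 mg/kg. Likewise, 4 of the 6 blood cell markers lay below 0 (median -0.04). By limma, 0 of 6 measured stellate cell markers were called at either dose (0 with an unadjusted p under 0.05). The difference between 3′ and 5′ probe sets of Gapdh, a measure of RNA integrity, was 0.12 to 0.22 in Null 0 mg/kg, 0.10 to 0.16 in Null 3 mg/kg and 0.07 to 0.21 in Null 10 mg/kg. That between 3′ and middle probe sets of β-actin was 0.51 to 0.56, 0.54 to 0.62 and 0.53 to 0.59 in the same groups, and that between its 3′ and 5′ probe sets had means of 0.44, 0.48 and 0.44. The part of these markers in the subunit changes was not tested.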

How the data were processed

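Log2 values of 45101 probe sets on 30 arrays were used as deposited. Per the methods, the authors made them by Robust Multichip Average (RMA), which adjusts background and quantile normalizes the arrays. Per the methods, all samples were labelled and hybridized in 1 block. The table held 0 columns of other samples. Left out were 64 control probe sets, and a probe set had to exceed 5.65, the median of the whole table, on 5 or more arrays (24069 did). Only the 34958 probe sets that an annotation table pairs with 1 gene were used. Groups were taken from the sample titles, which call the replicates biological.

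limma 3.58.1 in R 4.3.3 was fitted to the 15 arrays of a genotype for its dose comparisons, and to all 30 for comparisons of genotypes. Adjustment was by Benjamini-Hochberg across every kept probe set, with a threshold of 0.05. Where probe sets shared a gene, the smallest p over the dose effects decided, anew in each alternative. The methods' t-test was run as an alternative, at an unadjusted p of at most 0.0025 and after adjustment. The steps were tested on simulated data. Named genes were all Sdh genes and Cycs, the 4 genes each of complexes III, IV and V with the smallest p, those called against their complex, tissue isoforms of complex IV, the ATP synthase inhibitor and, of other groups, up to 4 called genes. The genes and lists were chosen with earlier results of these data known. Other alternatives were filters, probe set rules, rescaling of arrays, the spread model, the arrays in the fit, a replicate block, and arrays left out. Figures were drawn with matplotlib 3.10.9.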

Additional observations from a re-analysis of the deposited data

Results flagged for a closer look

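For 24 genes, each of the 6 groups of 5 arrays was tested for a single array far from the rest, and 13 of these 144 tests found one. Chance gives about 1 in 20 for a test by itself, but these tests share arrays and are not independent. The gap of that array to its nearest neighbour, as a share of the range of the group, is given for each. In complex II it was 0.748 for Sdha and 0.868 for Sdhb on Null 3 mg/kg replicate 4, which was low in both, and 0.823 for Sdhb on WT 10 mg/kg replicate 3. WT 3 mg/kg replicate 2 was low for Uqcrq (0.754), Cox6c (0.795) and Atp5g2 (0.864). The share was 0.773 for Cox5b on WT 0 mg/kg replicate 4, 1 of the 2 doubted arrays, 0.854 for Cox6a1 on WT 10 mg/kg replicate 3 and 0.779 for Cox6a2 on WT 3 mg/kg replicate 4. In Null 0 mg/kg it was 0.773 for Cox6b2 on replicate 4, 0.71 for Cox6c on replicate 2 and 0.79 for Cox7a2 on replicate 1, and in Null 3 mg/kg 0.712 for Atp5l on replicate 4.

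The response differed between Null and WT mice by the interaction term of limma at an adjusted p under 0.05 in 4 of the described genes at 3 mg/kg, Atp5g2 (-0.45), Cycs (-0.58), Uqcr10 (-0.51) and Uqcrh (-0.56). At 10 mg/kg it differed in Atp5c1 (0.41), Atp5g2 (-0.43), Atp5h (-0.46), Atp5j (-0.33), Atp5l (-0.38), Cox5b (-0.54), Cox6a1 (-0.24), Cox6c (-0.79), Cycs (-0.61), Sdhc (-0.37), Uqcr10 (-0.49), Uqcr11 (-0.45), Uqcrh (-0.47) and Uqcrq (-0.31), each as the Null minus the WT log2 change. These differences rest on the WT 0 mg/kg group. Without its 2 doubted arrays, Atp5g2, Cycs and Uqcr10 were not called at 3 mg/kg (adjusted p = 0.0847, 0.0694 and 0.118), nor at 10 mg/kg were Atp5h (0.0514), Atp5j (0.0956), Atp5l (0.063), Cox6a1 (0.0782), Cox6c (0.0677), Uqcr10 (0.0609) and Uqcrq (0.0661). On their brightest probe sets, with all arrays, Uqcrh, Cox5b and Cox6c (-0.25, adjusted p = 0.15) were not called at 10 mg/kg, and Atp5c1 lay below 0.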

How the results depend on the processing

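Counts of called genes stayed within 1.5 times the reported count in 211 of 285 reruns and moved in 74. The 211 include reruns of comparisons with a reported count of 0 that stayed at 0, so they overstate the stability of the other counts. The median log2 change over the 42 genes stayed between -0.33 and -0.26 for Null 3 mg/kg, -0.32 and -0.22 for Null 10 mg/kg, and 0.02 and 0.09 for WT 10 mg/kg. Without a filter, the count was 15 for Null 3 mg/kg, 2 and 13 for the difference between genotypes at 3 and 10 mg/kg, and 0 for Null 0 mg/kg against WT 0 mg/kg. With the highest-mean probe set the last 2 were 13 and 0. Without probe sets that can bind several transcripts (32 genes left), counts were 2 for WT 10 mg/kg, 14 for Null 3 mg/kg, 11 for the difference at 10 mg/kg and 0 between controls. With arrays shifted to 1 median, they were 2 for WT 10 mg/kg, 12 for the difference at 3 mg/kg and 2 between controls. Repeated quantile normalization gave 8 for the difference at 3 mg/kg and 0 between controls, a trended and robust spread 2 for WT 10 mg/kg and 15 for the difference at 3 mg/kg, and other arrays in the fit 0 between controls. The methods' t-test at the unadjusted limit gave 0 for WT 10 mg/kg, 21 for the difference at 3 mg/kg and 3 between controls, and after adjustment 12 for the difference at 3 mg/kg. Without the 2 doubted arrays, counts were 2 for WT 10 against 0 mg/kg, 1 for WT 10 against 3 mg/kg, and 0 and 10 for the difference at 3 and 10 mg/kg. The cause of these moves was not tested.

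With 1 array left out in turn, counts ranged from 0 to 0 for WT 3 mg/kg, 1 to 3 for WT 10 mg/kg, 0 to 1 for WT 10 against 3 mg/kg, 10 to 25 for Null 3 mg/kg, 14 to 26 for Null 10 mg/kg, 0 to 0 for Null 10 against 3 mg/kg, 2 to 24 and 6 to 26 for the difference at 3 and 10 mg/kg, and 0 to 2 between controls. With the replicate number as a block, counts were 14 for Null 3 mg/kg, 20 for Null 10 mg/kg, 1 for WT 10 mg/kg, 4 and 21 for the difference at 3 and 10 mg/kg, and 2 between controls. Arrays of the same number in different groups had median correlations of -0.0763 to 0.0912 in their deviations, so the numbers were not taken as pairs.

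Single genes kept their direction and side of the threshold in 4297 of 4758 reruns. With the direction kept, a call was lost in 239 and gained in 139. The direction changed in 77 without a call before or after, and in 6 with a call before or after. These 6 were Atp5c1 in the difference at 10 mg/kg with the highest-mean probe set (-0.13) and, without probe sets that can bind several transcripts, Uqcrq (0.04 and 0.20 in Null 3 and 10 mg/kg, 0.03 in the difference at 10 mg/kg) and Cox5b (0.08 in Null 10 mg/kg and 0.11 in that difference). Values are relative signals, and 5 genes were read on probe sets with means under 8, where the signal limits what can be seen. Signal and log2 change were also compared on the brightest probe sets of the 37 genes above 11. Their Spearman correlation was 0.44 for Null 3 mg/kg, 0.38 for Null 10 mg/kg and -0.35 for WT 10 mg/kg. Over all 42 genes it was 0.24, 0.05 and -0.3. Among the 37, brighter genes thus tended to fall less in Null mice, and the reason was not tested.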
